A study of Mus musculus with 36 samples.

Results

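R35A cells at 1 hr post induction (hpi) were compared with wild-type cells at 18 hpi, and the genes that failed to match were described. The study describes the gene expression of this pair as similar, though it was not the nearest pair by number of differing genes. The comparison rests on 4 of the 36 RNA-seq libraries of the series, 2 of R35A cells at 1 hpi and 2 of wild-type cells at 18 hpi, picked by the construct and timepoint in their titles and columns and not by their values. All cells were B cells from the bone marrow of C57BL/6J mice, infected with a retrovirus that carries C/EBPα fused to the hormone-binding part of the estrogen receptor and a human CD4 marker, and selected for that marker. R35A cells received the factor with alanine in place of arginine 35, and wild-type cells the unchanged factor. Both were cultured on mouse embryonic fibroblast feeders inactivated with mitomycin-C, in medium with IL-7, IL-3, FLT-3, CSF-1 and SCF, and induced with estradiol (E2), which lets the fusion protein enter the nucleus. The labels call the libraries of a group biological replicates, and if these shared a culture the p-values measure only technical spread. The series also holds a lysine mutant (R35K), whose libraries were not used here. The compared conditions differ in construct and in time under E2 at once.

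C/EBPα is a basic leucine zipper transcription factor that drives myeloid differentiation and, when expressed in B cells, converts them into macrophage-like cells, a process called B cell to macrophage transdifferentiation (BMT). It acts with PU.1, an Ets-family factor that both B cells and macrophages need and that binds different enhancers in each. Arginine 35 lies in the transactivation domain of C/EBPα and can be methylated by the arginine methyltransferase Carm1. During BMT, genes of B cell identity and of the cell cycle are silenced while genes of phagocytosis, innate sensing and inflammation are activated.

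The total count per library was 17257220 and 16784026 in R35A cells at 1 hpi and 15063130 and 16546385 in wild-type cells at 18 hpi. Of 16988 genes tested, 1779 (10.5%) differed by at least 1.5-fold at an adjusted p of at most 0.05 (edgeR quasi-likelihood F test, Benjamini-Hochberg), 1301 (7.66%) higher and 478 (2.81%) lower in R35A cells. The median log2 fold change over all genes was 0.03, and 82.3% of genes lay within 1.5-fold of each other whatever their p. Changes from 0 hpi, which share no library between the constructs, had a Pearson correlation across the 16988 genes of 0.841 and a Spearman correlation of 0.850, with a slope of R35A on wild type of 0.759. These describe the likeness of the profiles only, since genes are not independent replicates. By the number of genes differing, R35A cells at 1 hpi lay at 1779 genes from wild-type cells at 18 hpi, at 1989 from those at 6 hpi and at 3285 from those at 1 hpi. The wild-type libraries at 6 hpi differed from each other more than those of any other group. The chi-square per degree of freedom of their counts was 11.9, beside at most 2.98 elsewhere. Leaving out either of them lowered the count at 6 hpi, but a fit with 1 library in a group also detects less. The order of 6 and 18 hpi by these counts was therefore not settled. With neither 6 hpi wild-type library in the fit, 1781 genes (1300 higher, 481 lower) differed between the compared conditions. From the other side, R35A cells at 6 hpi (1618 genes) and at 18 hpi (1711) were nearer to wild-type cells at 18 hpi than R35A cells at 1 hpi were. These counts share libraries and were not tested against each other.

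Markers of both lineages were present in both conditions. The 7 B cell markers checked (Cd79a, Cd79b, Pax5, Ebf1, Vpreb1, Igll1 and Rag1) summed to 441 and 437 read counts scaled to the library total (CPM) in R35A cells at 1 hpi and to 299 and 304 in wild-type cells at 18 hpi, down from 3162 and 3182 in wild-type cells at 0 hpi. The 8 macrophage markers (Itgam, Csf1r, Cd14, Lyz2, Adgre1, Fcgr1, Cd68 and Mertk) summed to 3744 and 3720 CPM in R35A cells and to 822 and 820 in wild-type cells, up from 72.6 and 72.8 at 0 hpi. R35A cells at 1 hpi thus held more summed RNA of both marker sets. Singly, 2 of the 7 B cell markers and 7 of the 8 macrophage markers were called higher, and 0 were called lower. Abundant genes weigh most in such sums, and Lyz2 made up most of the macrophage sum in both conditions. In bulk RNA, fewer cells of a type and less RNA per cell cannot be told apart.

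The promoters of 5 genes on which the results turn are printed here, picked because they hold a motif of a factor of BMT or of the interferon response and come from genes that were higher, matched or lower. They run from 250 bases before to 50 after the RefSeq start in GRCm38.p6, read along the gene, all on the plus strand, with matches in capitals. The motifs searched on both strands were TTGCNNAA for C/EBP, GAGGAAGT for PU.1 and GAAA followed after any 2 bases by GAAA for the interferon-stimulated response element (ISRE). Pf4 (chr5:90772185-90772484) and Aoah (chr13:20793863-20794162) were higher in R35A cells, Slfn5 (chr11:82951852-82952151) was higher too, Mmp8 (chr9:7558179-7558478) matched, and Prtn3 (chr10:79879417-79879716) was lower.
Pf4: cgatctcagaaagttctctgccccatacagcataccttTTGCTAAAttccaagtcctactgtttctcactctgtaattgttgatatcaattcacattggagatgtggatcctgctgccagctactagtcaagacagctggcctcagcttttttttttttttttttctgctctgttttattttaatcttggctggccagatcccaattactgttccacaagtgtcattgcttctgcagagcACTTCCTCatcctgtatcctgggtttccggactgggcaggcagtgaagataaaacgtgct
Aoah: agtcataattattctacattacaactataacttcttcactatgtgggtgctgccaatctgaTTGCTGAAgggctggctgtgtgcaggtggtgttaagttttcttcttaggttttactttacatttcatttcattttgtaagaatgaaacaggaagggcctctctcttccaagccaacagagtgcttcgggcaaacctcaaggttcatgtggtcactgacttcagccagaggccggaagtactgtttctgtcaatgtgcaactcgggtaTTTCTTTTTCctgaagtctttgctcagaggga
Slfn5: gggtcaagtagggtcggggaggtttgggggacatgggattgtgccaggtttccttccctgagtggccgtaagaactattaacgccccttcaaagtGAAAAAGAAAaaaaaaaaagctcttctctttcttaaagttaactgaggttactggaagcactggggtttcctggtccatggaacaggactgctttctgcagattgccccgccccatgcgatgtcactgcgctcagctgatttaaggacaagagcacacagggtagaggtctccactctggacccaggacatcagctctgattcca
Mmp8: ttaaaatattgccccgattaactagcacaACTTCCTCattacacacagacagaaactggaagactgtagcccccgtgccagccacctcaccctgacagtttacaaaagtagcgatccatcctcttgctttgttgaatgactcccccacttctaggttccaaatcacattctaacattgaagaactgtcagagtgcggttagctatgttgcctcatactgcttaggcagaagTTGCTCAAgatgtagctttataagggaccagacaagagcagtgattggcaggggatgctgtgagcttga
Prtn3: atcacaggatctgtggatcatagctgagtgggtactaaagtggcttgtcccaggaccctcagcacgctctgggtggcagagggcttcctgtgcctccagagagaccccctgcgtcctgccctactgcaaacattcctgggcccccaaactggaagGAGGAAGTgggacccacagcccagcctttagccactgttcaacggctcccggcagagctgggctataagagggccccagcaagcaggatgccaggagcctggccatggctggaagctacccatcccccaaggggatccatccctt
Pf4 and Mmp8 each held 1 C/EBP match and 1 PU.1 match, and the former differed 11.7-fold between the conditions while the latter differed 1.22-fold. Aoah held 1 C/EBP and 1 ISRE match, Slfn5 held 1 ISRE match and Prtn3 held 1 PU.1 match. No 2 of these matches overlapped. Of 18842 promoter windows of the same length, 9.92% held the C/EBP letters, 3.05% the PU.1 letters and 3.27% the ISRE letters. A match is a description of the sequence. Only 70.5% of the tested genes had a window, so shares were not compared between groups of genes.

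The differing genes fell into 3 large groups by their own changes from 0 hpi. Of the 1301 genes higher in R35A cells, 608 had risen in R35A cells. There 18.3% of all tested genes rose and 37.3% changed in either direction. The 608 had a median log2 change of 2.38 in R35A against 1.23 in wild-type cells and are called further induced here. Another 641 had fallen in wild-type cells, where 23.2% of all tested genes fell, and had not risen in R35A cells. Their median was −2.69 in wild-type against −1.71 in R35A cells, and they are called less reduced here. Of the 478 lower genes, 366 had risen in wild-type cells, where 23.9% of all tested genes rose. Their median was 1.08 in wild-type against 0.08 in R35A cells. The remaining 164 differing genes fitted none of these. Because the changes use the compared libraries, these groups are a description and carry no test.

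**Figure D1:**
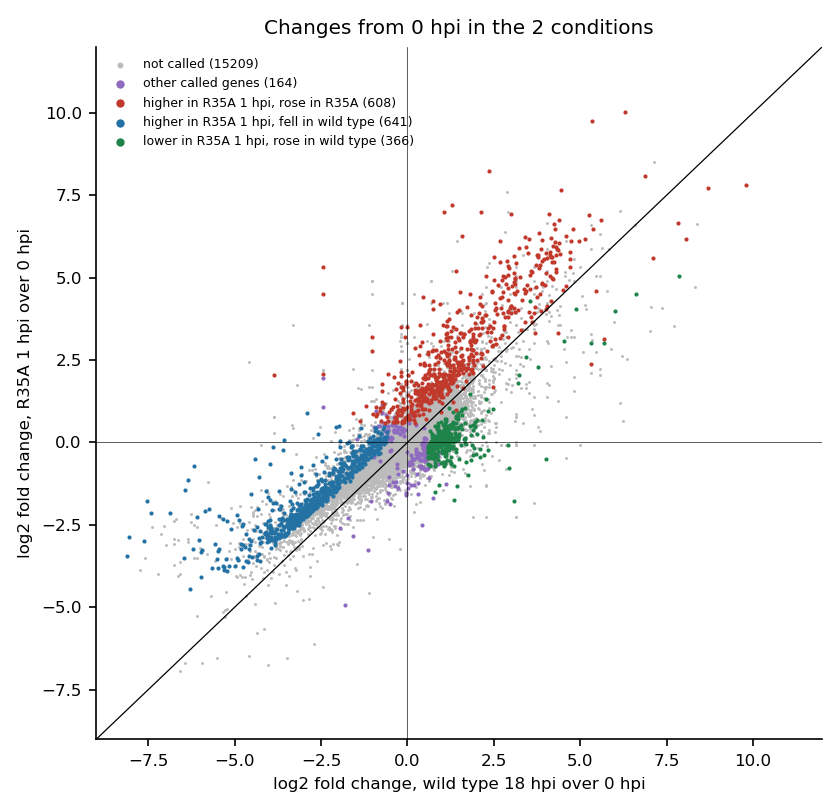
Log2 fold change from 0 hpi in wild-type cells at 18 hpi (x axis) and in R35A cells at 1 hpi (y axis), 1 point per gene, with the diagonal of equal change. Red points (608 genes that rose in R35A cells) and blue points (641 genes that fell in wild-type cells) lie above the diagonal, and green points (366 genes that rose in wild-type cells) lie below it near 0 on the y axis.

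Among the further induced genes, R35A cells at 1 hpi exceeded the mean of every wild-type timepoint up to 18 hpi in 580 of 608. These genes were chosen as higher than wild-type cells at 18 hpi and as risen in R35A cells. The count was therefore partly set by the choice and carries no test. By 120 hpi, 518 (85.2%) of the 608 had risen in wild-type cells too, beside 23.1% of all tested genes that rose and 63.3% that changed. Of the 580, 458 were still below wild-type cells at 120 hpi and 122 were at or above that level. Lyz2, which encodes the lysozyme of macrophages and neutrophils, was at 2818 and 2818 CPM in R35A cells at 1 hpi and at 523 and 525 CPM in wild-type cells at 18 hpi. The groups were far apart, a log2 fold change of 2.43 ± 0.03 (SE, n = 2 libraries each; adjusted p = 2.29e-47, edgeR). Wild-type cells had reached 628 CPM on average at 1 hpi and had not gone beyond this by 18 hpi. Csf1r, the receptor for CSF-1, was at 555 and 544 against 151 and 146 CPM (log2 1.89 ± 0.04), and Cd14, the co-receptor for bacterial lipopolysaccharide, at 76.5 and 73.9 against 22.2 and 23.3 CPM (1.72 ± 0.06). Itgam, which encodes the Mac-1 integrin chain CD11b, differed less, at 53.6 and 54.4 against 31.5 and 30.5 CPM (0.80 ± 0.06, adjusted p = 7.96e-17, edgeR). Of the 20 macrophage signature genes of the study, a list not chosen independently of these samples, 12 were higher and 1 was lower. All tested genes were higher in 7.66% and lower in 2.81%. The median log2 fold change of the list was 1.12, beside 0.03 over all genes.

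Fcrls had the largest log2 fold change among higher genes at 10 CPM or more in R35A cells, of which the first 10 are named. This Fc receptor-like gene was at 17.3 and 15.7 CPM in R35A cells against 0.586 and 0.77 in wild-type cells (log2 4.58 ± 0.18, adjusted p = 5.92e-27, edgeR). Pf4, the chemokine platelet factor 4 that macrophages and megakaryocytes make, was at 159 and 161 against 14.7 and 12.7 CPM (3.55 ± 0.06). In wild-type cells Pf4 was higher at 1 hpi (29.5 CPM on average) than at 18 hpi. Aoah, which inactivates bacterial lipopolysaccharide by removing acyl chains, was at 17.4 and 17.9 against 1.69 and 1.72 CPM (3.37 ± 0.15). Apoe, the apolipoprotein of cholesterol efflux, was at 321 and 323 against 53.1 and 52.5 CPM (2.61 ± 0.05). All libraries of R35A cells lay above those of wild-type cells in each of these genes, which the rule for naming them required. Libraries of the 2 conditions did not overlap in 65.0% of all tested genes. Saa3, an acute phase protein, was at 18 and 18.6 against 1.3 and 0.651 CPM (4.24 ± 0.17), Cx3cr1, the fractalkine receptor, at 13.4 and 14.8 against 1.76 and 1.07 CPM (3.33 ± 0.16), and Slfn5, of the interferon-inducible Schlafen family, at 40.7 and 41.7 against 5.8 and 6.99 CPM (2.68 ± 0.09). The membrane-spanning 4A genes Ms4a14, Ms4a7 and Ms4a4a, which lie close together in mm10 (chr19:11301249-11392790), complete these, with log2 fold changes of 3.27, 3.11 and 3.08. They are members of a family of similar genes, so reads may be shared among them.

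**Figure D2:**
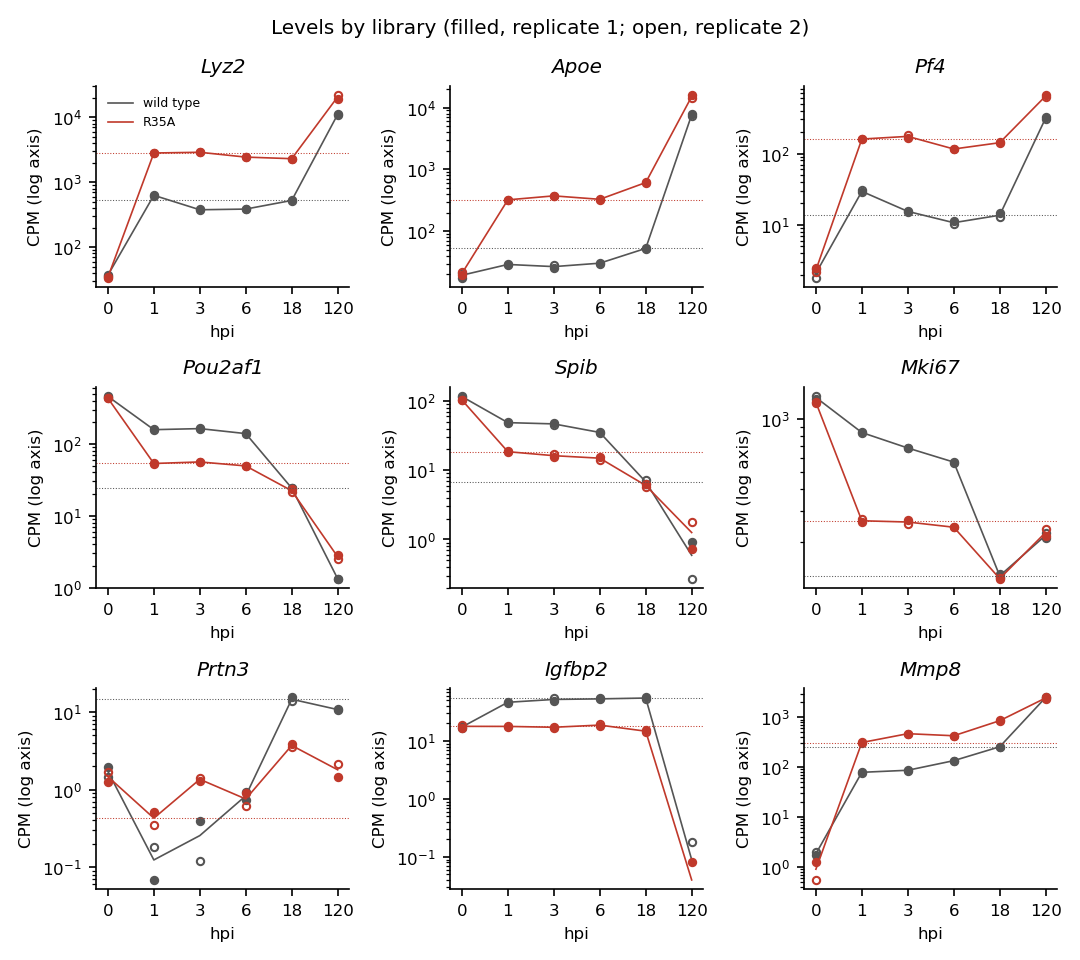
CPM on a log axis against timepoint in hpi (evenly spaced) for 9 genes in wild-type (grey) and R35A cells (red), with lines through the means, dotted lines at the level of R35A cells at 1 hpi and of wild-type cells at 18 hpi, and a library at 0 not drawn. R35A cells at 1 hpi lie above wild-type cells at 18 hpi for Lyz2, Apoe, Pf4, Pou2af1, Spib and Mki67, below for Prtn3 and Igfbp2, and close to them for Mmp8.

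Of 30 receptors by which phagocytes sense and take up microbes, 23 were higher in R35A cells and 2 lower, with a median log2 fold change of 1.12. For this and the other lists of the paragraph, the shares over all tested genes were 7.66% higher and 2.81% lower. Tlr2, the receptor for bacterial lipoproteins, was at 178 and 171 against 39.4 and 37.9 CPM (log2 2.18 ± 0.04), and Fpr2, a formyl peptide receptor, at 8.68 and 8.1 against 0.912 and 1.48 CPM (2.79 ± 0.20). The 2 lower members had risen in both constructs. These were Itgax, which encodes the integrin CD11c, at 7.39 and 8.74 against 13.9 and 12.8 CPM (−0.73 ± 0.11), and the scavenger receptor Marco, at 1.47 and 1.68 against 3.13 and 2.55 CPM (−0.84 ± 0.23). The call for Marco was lost without the first wild-type library, at −0.67. Of 27 inflammatory cytokines and chemokines tested, 14 were higher and 1 lower. Il1b was at 14.3 and 11.9 against 2.47 and 2.37 CPM (2.44 ± 0.14), the chemokine Cxcl16 at 44.2 and 45.5 against 10.7 and 9.53 CPM (2.15 ± 0.08), and Il6 at 38.7 and 38.5 against 13.5 and 12.1 CPM (1.60 ± 0.08). Of 19 NF-kB factors and feedback genes, 7 were higher and 0 lower by edgeR and by DESeq2, with 2 negative at an unadjusted p under 0.05. Tnip3, an inhibitor of NF-kB signalling, was at 20.9 and 21.4 against 4.49 and 5.27 CPM (2.11 ± 0.11). Of 14 lipid efflux and scavenging genes, to which Apoe belongs, 8 were higher and 1 lower. The lower one was the cholesterol transporter Abca1, at 159 and 152 against 242 and 242 CPM (−0.64 ± 0.04). Cybb, the catalytic subunit of the phagocyte oxidase, was at 409 and 396 against 180 and 180 CPM (1.16 ± 0.04).

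Interferon-stimulated genes, which encode antiviral proteins, were higher in R35A cells in 22 of 36 and lower in 0, with a median log2 fold change of 0.90. Among all tested genes 7.66% were higher and 2.81% lower. At an unadjusted p under 0.05 no member was negative either, and DESeq2 called 19 higher and 0 lower. Oas2, an enzyme that senses double-stranded RNA, was at 11.9 and 11.5 against 2.54 and 2.66 CPM (2.17 ± 0.14), Oasl2 at 6.43 and 5.96 against 1.56 and 1.18 CPM (2.18 ± 0.21), and Rsad2, which encodes viperin, at 6.2 and 5.79 against 1.04 and 1.72 CPM (2.10 ± 0.20). The summed level of the list was 404 and 389 CPM in R35A cells at 1 hpi, close to the 393 and 379 CPM of R35A cells at 0 hpi, whereas it was 252 and 246 CPM in wild-type cells at 18 hpi and 394 and 396 CPM at 0 hpi. The sums weight abundant members most. The median member changed from 0 hpi by 0.83 in R35A cells and by 0.16 in wild-type cells, on the log2 scale.

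Of the transcription factors of BMT, Spi1 differed, whereas Cebpa and Cebpb stayed below the fold threshold. Spi1, which encodes PU.1, was at 95.4 and 96.4 against 44 and 44.5 CPM (log2 1.12 ± 0.05, adjusted p = 3.47e-24, edgeR). Cebpb, a relative of C/EBPα that rises in macrophages, was at 66.8 and 73 against 58.1 and 57.4 CPM (0.27 ± 0.07). Cebpa itself was at 53.5 and 56.1 against 39.7 and 39.4 CPM (0.47 ± 0.07), where reads from the introduced construct and from the endogenous gene cannot be told apart here. Esr1 was at 46.5 and 46.4 against 28 and 27.6 CPM (0.74 ± 0.06), and part of its reads may come from the receptor part of the construct. Carm1 was at 69 and 66.4 against 74.7 and 70.9 CPM (−0.10 ± 0.06, adjusted p = 0.177, edgeR), with a 95% interval from −0.22 to 0.01 on the log2 scale, and none of the 8 arginine methyltransferase genes tested was called by edgeR or DESeq2, with 1 positive and 3 negative at an unadjusted p under 0.05. Socs3, a feedback inhibitor of cytokine receptors, was at 162 and 167 against 49.6 and 43.9 CPM (1.82 ± 0.05).

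The less reduced genes included genes of B cell identity and of cell division. Of the 20 B cell signature genes of the study, also not chosen independently of these samples, 9 were higher in R35A cells at 1 hpi and 0 were lower. Their median log2 fold change was 0.55. The shares over all tested genes, for this and the lists below, were 7.66% higher and 2.81% lower. Spib, an Ets factor of B cells, was at 18.7 and 18.3 against 6.32 and 7.28 CPM (1.44 ± 0.11, adjusted p = 1.63e-15, edgeR), Ikzf3, which encodes Aiolos, at 17.9 and 17.1 against 5.86 and 8.41 CPM (1.29 ± 0.11), and Pou2af1, a B cell coactivator, at 53.6 and 53.1 against 24.4 and 24.2 CPM (1.13 ± 0.05). Dntt, which adds bases at V(D)J joints, was at 10.4 and 11.2 against 3.84 and 3.67 CPM (1.52 ± 0.13). The core regulators Pax5 and Ebf1 differed less than these named genes, at about the median of the signature list. Pax5 was at 79.1 and 79.8 against 50.9 and 57.4 CPM (0.55 ± 0.05) and Ebf1 at 72.4 and 74.6 against 49.7 and 50.9 CPM (0.55 ± 0.05), below the 1.5-fold threshold, although without the second wild-type library Pax5 passed it at 0.66. Rag2, a recombinase subunit, was at 1.92 and 1.56 against 1.3 and 1.42 CPM (0.35 ± 0.27, adjusted p = 0.364, edgeR), so no difference was detectable at this depth. Of 24 genes of the pre-B cell receptor and V(D)J recombination, 12 were higher and 0 lower (median 0.57), and of 28 transcription factors of the B lineage, 10 were higher and 1 lower (median 0.45). MHC class II genes, used by B cells and macrophages to present antigen, were higher in 8 of 11 and lower in 0, among them H2-Aa at 26.7 and 25.6 against 11.3 and 11.6 CPM (1.19 ± 0.09). In the 3 of these lists with 0 lower, DESeq2 also called 0 lower, and 1, 0 and 0 members respectively were negative at an unadjusted p under 0.05. All 23 immunoglobulin and T cell receptor segments that differed, of 109 tested, were higher in R35A cells.

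Of 40 mitosis genes, 26 were higher in R35A cells at 1 hpi and 0 were lower (median log2 fold change 0.74). Of 44 DNA replication genes, 19 were higher and 0 were lower (median 0.55). These counts stand beside 7.66% higher and 2.81% lower over all tested genes. DESeq2 called 23 and 14 higher and 0 lower, and at an unadjusted p under 0.05 only 1 mitosis gene and 0 replication genes were negative. Mki67, the marker of cycling cells, was at 259 and 270 against 131 and 126 CPM (1.04 ± 0.04), and Ccna2, which encodes cyclin A2, at 43.4 and 43.5 against 20.7 and 22.8 CPM (1.00 ± 0.06). Uhrf1, which maintains DNA methylation at replication forks, was at 56.9 and 53.7 against 25.8 and 24.2 CPM (1.15 ± 0.06). The helicase subunit Mcm3 was at 65.5 and 64.8 against 33.4 and 35.5 CPM (0.92 ± 0.05). Of 20 G1 cyclins, kinases and inhibitors, 1 was higher and 2 were lower, so 15% were called, beside 10.5% of all tested genes. DESeq2 called 1 higher and 4 lower in this list. The 2 lower ones by edgeR were D-type cyclins, Ccnd2 at 380 and 387 against 611 and 619 CPM (−0.68 ± 0.03) and Ccnd1 at 124 and 123 against 194 and 199 CPM (−0.67 ± 0.04).

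Over time the 641 less reduced genes were mixed. By their means, R35A cells at 1 hpi were below wild-type cells at 1 hpi in 552 of them (86.1%, beside 51.0% of all tested genes), and R35A cells at 18 hpi were below R35A cells at 1 hpi in 554 (86.4%, beside 50.0%). At 18 hpi, however, R35A cells were below wild-type cells in 174 (27.1%, beside 49.9%) and at or above them in 467, a comparison that shares the wild-type libraries which placed the genes in this group. By 120 hpi, 373 (58.2%) of the 641 had fallen in wild-type cells from 0 hpi and 177 (27.6%) had risen, beside 40.2% and 23.1% of all tested genes.

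No gene of ribosome production was called. Log2 fold changes ran from −0.93 to 0.68 in ribosomal protein genes, past 1.5-fold at both ends. In biogenesis genes they ran from −0.41 to 0.31. None of 67 cytosolic ribosomal protein genes and none of 40 ribosome biogenesis genes were called by edgeR, with medians of −0.01 and 0.05, and the 95% interval of the log2 fold change lay within 1.5-fold for 56 and 40 of them, beside 56.6% of all tested genes. DESeq2 called 0 of either list as well, while at an unadjusted p under 0.05 and any fold 5 ribosomal protein genes were positive and 8 negative, and 15 biogenesis genes were positive and 3 negative. Of 40 immediate early genes, the first to respond to a stimulus, 2 were higher and 1 was lower, a share of called genes near the 10.5% of all tested genes, and 35 had intervals within 1.5-fold. Fosb, an AP-1 subunit, was the lower one, at 119 and 114 against 189 and 189 CPM (−0.70 ± 0.04). Of 20 targets of p53, all 20 had a negative fold change and 19 had intervals within 1.5-fold, with a median of −0.29. Perp was the 1 gene past the threshold, an adhesion gene at 223 and 227 against 366 and 379 CPM (−0.73 ± 0.04).

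**Figure D3:**
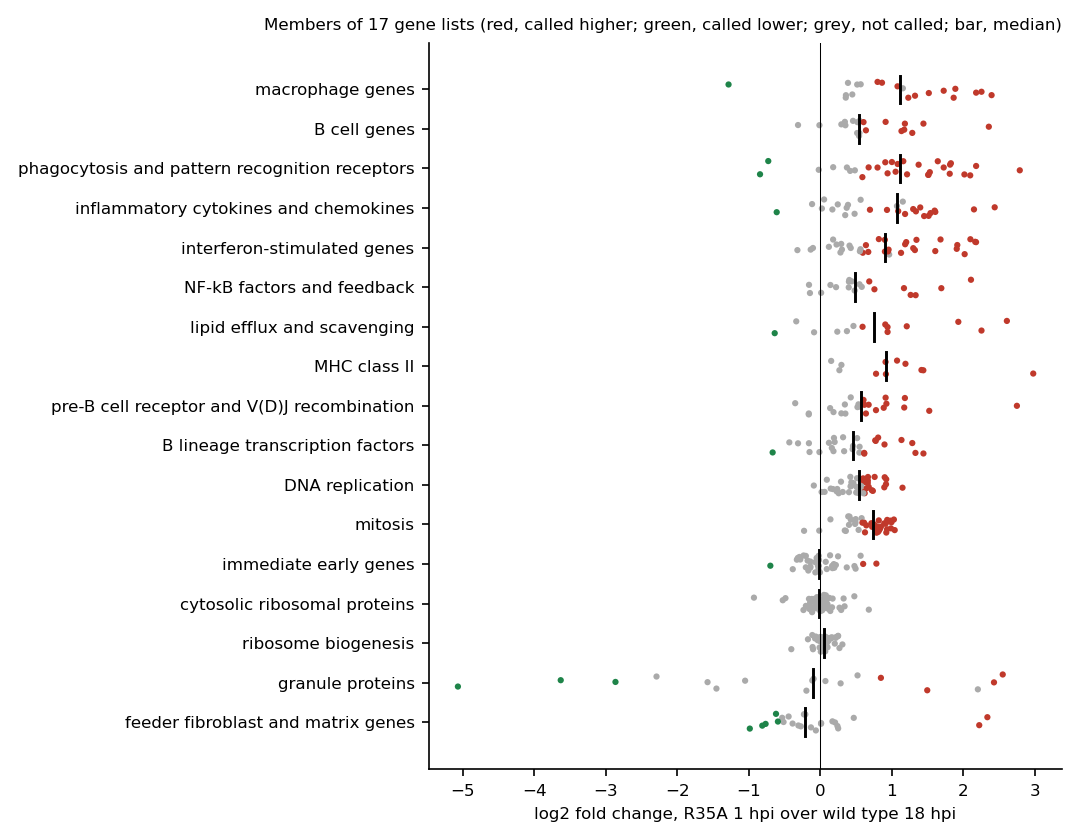
Log2 fold change of R35A cells at 1 hpi over wild-type cells at 18 hpi for each tested member of 17 gene lists, with points spread vertically for legibility and a bar at the list's median. Medians lie to the right of 0 for macrophage, innate sensing, B cell and cell cycle lists, near 0 for immediate early, ribosomal protein and ribosome biogenesis genes, and to the left of 0 for the feeder fibroblast list (−0.22) and for granule proteins (−0.10, positive when the compared libraries were fitted alone).

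Among the genes lower in R35A cells, Prtn3, the neutrophil and progenitor protease proteinase 3, had the largest difference, with 0.508 and 0.347 CPM (9 and 6 counts) in R35A cells at 1 hpi against 15.6 and 13.7 CPM in wild-type cells at 18 hpi (log2 −5.06 ± 0.23, adjusted p = 1.5e-24, edgeR). It was at 0.124 CPM on average in wild-type cells at 1 hpi and at 3.71 CPM in R35A cells at 18 hpi, so it was above its 1 hpi level by 18 hpi in both constructs. Flt3, a progenitor receptor, was at 2.14 and 1.97 against 5.6 and 5.27 CPM (−1.40 ± 0.19). The granule protein list was split, with 4 members higher (among them Lyz2) and 3 lower, namely Prtn3 and the weakly expressed Fcnb and Elane. Elane had 1 count in each R35A library, and its call was lost without the first library of either group. With DESeq2 neither Fcnb nor Elane was called.

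The lower genes named by size also included genes of matrix and smooth muscle. Igfbp2, a binding protein for insulin-like growth factors, was at 18 and 17.6 against 56.9 and 52.9 CPM (−1.62 ± 0.08), Fmod, which encodes the matrix proteoglycan fibromodulin, at 11 and 11.9 against 38.5 and 32 CPM (−1.62 ± 0.09), and Dlk1, a Notch-like surface protein of stromal progenitors, at 49.5 and 53.1 against 156 and 148 CPM (−1.57 ± 0.05). Myh11, the heavy chain of smooth muscle myosin, was at 7.67 and 7.81 against 21 and 21.2 CPM (−1.44 ± 0.10), and Actg2, a smooth muscle actin, at 27.6 and 27.1 against 67.6 and 69.2 CPM (−1.32 ± 0.06). The protease gene Pcsk6, the receptor phosphatase gene Ptprz1 and the lipase gene Lipg had log2 fold changes of −1.36, −1.24 and −1.34. In wild-type cells at 120 hpi these 8 genes were at 0.476 CPM or less. Of all 478 lower genes, 385 (80.5%) fell in wild-type cells between 0 and 120 hpi, beside 40.2% of all genes tested, a tally that uses none of the compared libraries.

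Feeder fibroblast genes differed beside them. Of 25 genes of feeder fibroblasts and matrix, 2 were higher and 5 lower in R35A cells at 1 hpi, and 17 had intervals within 1.5-fold. The same shares over all tested genes were 7.66%, 2.81% and 56.6%. Their summed level was 25564 and 25586 CPM in R35A cells at 1 hpi and 33746 and 33109 CPM in wild-type cells at 18 hpi, against 13420 to 14421 CPM in the 4 libraries at 0 hpi, and no gene of the list was at 0 in all 4 compared libraries. Acta2, smooth muscle actin alpha 2, was at 1645 and 1625 against 3275 and 3197 CPM (log2 −0.99 ± 0.03), Postn, a matrix protein of fibroblasts, at 108 and 111 against 190 and 196 CPM (−0.81 ± 0.04), and Bgn, which encodes biglycan, at 2277 and 2278 against 3550 and 3445 CPM (−0.62 ± 0.04), at −0.58 and below the threshold without the first wild-type library. Dcn and Lum, which encode the related proteoglycans decorin and lumican, went the other way. Dcn was at 189 and 185 against 39.7 and 40.4 CPM (2.22 ± 0.05), and Lum at 8.68 and 7 against 1.24 and 1.84 CPM (2.34 ± 0.21). The part of feeder cells in the lower genes was not tested.

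**Figure D4:**
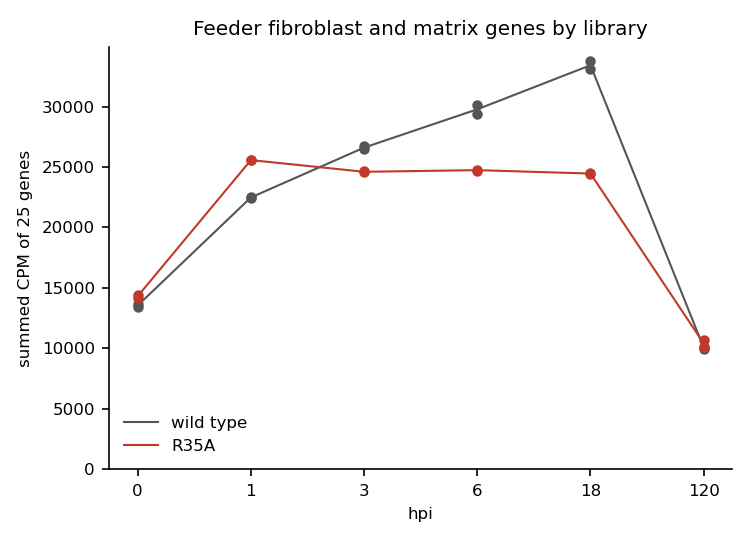
Summed CPM of the 25 feeder fibroblast and matrix genes against timepoint in hpi (evenly spaced), 1 point per library, with lines through the means. Wild-type cells (grey) climb to 33746 and 33109 CPM at 18 hpi, whereas R35A cells (red) reach 25564 and 25586 CPM at 1 hpi and stay near that level to 18 hpi.

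Markers of other blood lineages were detected to different extents. Of 10 T and NK cell markers in the table, 8 had at most 3 counts in each of the 4 libraries, as did 2 of 10 dendritic cell, 3 of 11 neutrophil, 4 of 9 mast cell and basophil, and 4 of 10 erythroid and megakaryocyte markers. Of those tested, 2 of 4 erythroid and megakaryocyte markers (Pf4 among them) and 1 of 2 T and NK cell markers were higher. Lower ones were 2 of 7 dendritic cell markers (Flt3 and Itgax) and 1 of 10 neutrophil markers. All tested genes were higher in 7.66% and lower in 2.81%. Counts of the T and NK cell markers were low, with Cd4 at 40 and 50 against 24 and 18 counts. Trac had 12 and 6 against 5 and 3 counts. The retrovirus carried a human CD4 marker, and whether its reads fell on Cd4 was not tested. Of the 4 mast cell and basophil markers tested, 1 was higher and 3 had negative fold changes that did not pass, with a median log2 fold change of −0.15. The higher one was Mcpt8, a basophil protease, at 29.1 and 31.9 CPM in R35A cells against 14.6 and 15.0 CPM in wild-type cells (log2 1.04 ± 0.09). The others were Gata2 (−0.18), Ms4a2 (−0.61) and Hdc (−0.11), a transcription factor, a receptor subunit for IgE and the enzyme that makes histamine, with 9 counts or fewer per library for the last 2.

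The 366 lower genes that rose in wild-type cells had a median span from first to last annotated base of 45 kb, beside 19.3 kb over all genes tested, and 33.5% of those with coordinates exceeded 100 kb, beside 12.2%. The median was 18.7 kb for the 608 further induced genes and 20.4 kb for the 641 less reduced. Among protein-coding genes alone the medians were 51.3 kb for the lower genes that rose in wild-type cells and 24.4 kb for all. Ctnnd2, a catenin gene of this group, spans 857 kb in mm10 (chr15:30172593-31029341) and was at 6.99 and 6.6 against 17.3 and 17.3 CPM (−1.35 ± 0.10). The spans carry no test.

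**Figure D5:**
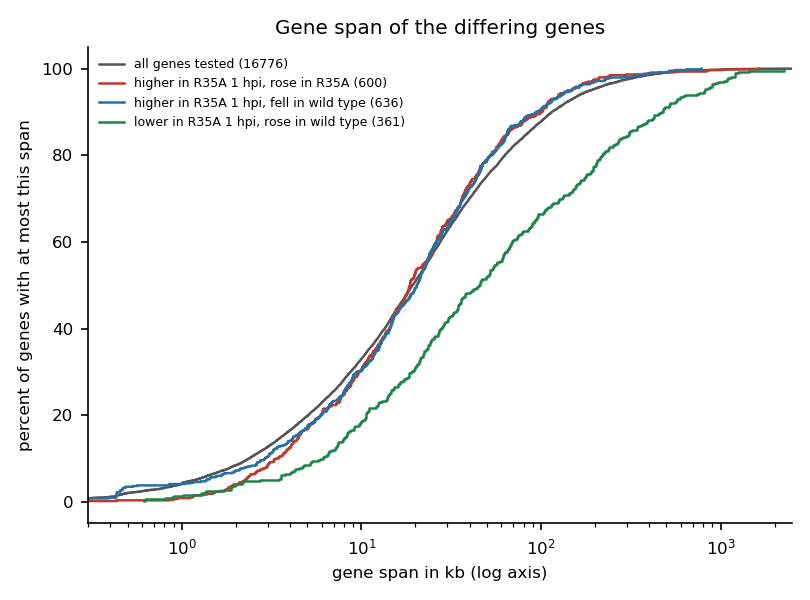
Cumulative percent of genes (y axis) with at most the span in kb on the log x axis, for all genes tested (grey) and for the 3 groups of differing genes. The curve of lower genes that rose in wild-type cells (green) runs to the right of the others, with a median of 45 kb against 19.3 kb for all genes.

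A few genes moved in opposite directions in the compared conditions, 12 higher genes that rose in R35A and fell in wild-type cells and 11 lower genes that did the reverse. Selenop, a selenium carrier, was at 142 and 147 CPM in R35A cells at 1 hpi and at 47 and 45.2 CPM in wild-type cells at 18 hpi, having started at means of 82.5 and 87.1 CPM (log2 fold change between the conditions 1.65 ± 0.05). Ly86, the partner of the Toll-like receptor homologue RP105, was at 13.5 and 13.9 against 4.23 and 3.91 CPM (1.75 ± 0.13), and Mcoln2, an endolysosomal channel, at 21.1 and 22.6 against 7.75 and 6.1 CPM (1.67 ± 0.11). Birc3, an inhibitor of apoptosis, was at 58.3 and 58.9 against 25.4 and 26.6 CPM (1.17 ± 0.06). All 4 were higher in wild-type cells at 120 hpi than at 0 hpi by their means. Il7r, the receptor chain for IL-7, was at 71.3 and 70.5 against 27.6 and 29.2 CPM (1.32 ± 0.06), having fallen by 0.93 on the log2 scale in wild-type cells. Of the lower genes, Rab3b, Dlk1 and Ppp2r2c fell in R35A cells and rose in wild-type cells, by −0.71 against 0.80, −0.62 against 1.07 and −0.69 against 0.64.

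The genes that matched were counted among 2853 that had changed more than 2-fold from 0 hpi in the same direction in both conditions. Of these, 840 (29.4%) had a 95% interval of the log2 fold change inside 1.5-fold, 391 of them rising and 449 falling, while 795 (27.9%) differed and 1218 did neither. Mmp8, neutrophil collagenase, was at 313 and 311 CPM in R35A cells at 1 hpi and at 256 and 256 CPM in wild-type cells at 18 hpi (log2 0.28, 95% interval 0.21 to 0.36), after rises of 8.50 and 7.13 on the log2 scale. The difference is small yet beyond the spread of the libraries (adjusted p = 1.62e-08, edgeR). Ifitm6, an interferon-induced membrane protein gene, was at 27.2 and 27.9 against 23.1 and 20.1 CPM, Clec4n, which encodes Dectin-2, at 152 and 143 against 115 and 113 CPM, and the chemokine Ccl9 at 192 and 194 against 148 and 150 CPM. Among falling genes, the B cell repressor Bach2 was at 30.7 and 30.7 against 24.2 and 24.5 CPM and the proliferation factor Myb at 39.9 and 35.8 against 30 and 30.7 CPM. Gimap1 and Tespa1, both at under 2 CPM, were at 1.52 and 1.79 against 1.69 and 1.66 CPM and at 1.75 and 1.45 against 1.24 and 1.89 CPM, with libraries that overlapped.

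The crossed pair, wild-type cells at 1 hpi against R35A cells at 18 hpi, shares no library with the comparison. In it, 14.8% of all tested genes were higher in wild-type cells at 1 hpi and 12.8% higher in R35A cells at 18 hpi. Of the 608 further induced genes, 485 (79.8%) were higher in R35A cells at 18 hpi, and of the 641 less reduced, 462 (72.1%) were higher in wild-type cells at 1 hpi. The matching genes leaned the same way, with 53.7% of those rising higher in R35A cells at 18 hpi and 86.0% of those falling higher in wild-type cells at 1 hpi, and a gene that moves 1 way over time in both constructs falls on this side by the choice of timepoints. The 366 lower genes that rose in wild-type cells were divided, 43 higher in wild-type cells at 1 hpi and 46 higher in R35A cells at 18 hpi. Igfbp2 was one of the former, at means of 46.4 CPM in wild-type cells at 1 hpi and 14.7 CPM in R35A cells at 18 hpi (log2 1.66, adjusted p = 4.5e-24, edgeR), while Prtn3 was one of the latter (log2 −4.77).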

How the data were processed

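Per the labels, RNA-seq was done on 2 libraries of each construct at 6 timepoints, and the submitters' processing notes name mm10, STAR 2.5.0a, FastQC and DESeq2 1.14.1. The deposited values are raw gene counts made by the authors, with no normalization, in 40354 genes. Libraries were grouped by construct and timepoint in their titles. Here genes were kept by filterByExpr and fitted over the 24 wild-type and R35A libraries in 12 groups with edgeR 4.0.16 (R 4.3.3), TMM scaling and the quasi-likelihood F test. A call required 1.5-fold and a Benjamini-Hochberg p of at most 0.05. CPM are counts scaled to the TMM-adjusted library total.

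Totals of the 24 libraries ran from 13044456 to 20580185 counts. The fit was first tested on simulated data. Replicates of the compared groups differed by little more than sampling noise. Their chi-square per degree of freedom was 1.20 in R35A cells at 1 hpi and 1.31 in wild-type cells at 18 hpi. It ran from 1.10 to 11.9 over the 12 groups, highest in wild-type cells at 6 hpi. The common biological coefficient of variation of the fit was 3.17%. Whether the libraries of a group shared a culture was not tested. Spans come from GENCODE vM21 (39171 of 40354 symbols matched) and promoters from RefSeq.

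The comparison, the gene lists and the lists' members were chosen with earlier results of these data known. Genes were named by rule: the 10 with the largest called change in each direction at 10 CPM or more in the higher group and with no overlap of libraries, up to 5 in each direction that the crossed pair called oppositely or whose own changes were opposite, up to 4 called members in each direction of the lists described, 12 fixed genes, and 8 matching genes. Immunoglobulin segments, predicted genes and pseudogenes were counted only. Other fits, filters and thresholds, the DESeq2 1.42.0 Wald test and leaving out each replicate were tried as alternatives. Values of some genes are not reported here.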

Additional observations from a re-analysis of the deposited data

How the results depend on the processing

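The 1779 differing genes became 2071 with an unadjusted p, 1736 (1159 higher, 577 lower) with DESeq2 size factors, 1699 from the compared libraries alone, 1437 (1009 and 428) by the DESeq2 Wald test, 1761 with no filter, 1739 with at least 10 counts, and 1626 to 1659 without 1 replicate. A fit without the wild-type libraries at 6 hpi, chosen after seeing the data, kept every count within 1.5 times. At 2-fold there were 761 (603 and 158). At that threshold the higher genes held 155 that fell in both constructs, 65 that fell in wild-type cells alone and 208 that rose in both. The lower ones held 85 that rose in wild-type cells alone, 6 that rose in both and 12 that fell in R35A cells alone, and the median span of the less reduced genes was 13.5 kb. The crossed pair gave 2533 (1570 and 963) at 2-fold, shared with the comparison as 158 higher in both, 268 higher then lower, 17 lower then higher and 11 lower in both. The 2-fold counts for R35A cells at 1 hpi were 4002, 1722, 1432 and 952 against wild-type cells at 0, 1, 3 and 6 hpi, and for wild-type cells at 18 hpi were 4062, 924, 710 and 879 against R35A cells at 0, 3, 6 and 18 hpi. With DESeq2 size factors, 57 lower genes rose in both constructs and 88 genes were lower in both pairs. A 2-fold band took the matching genes from 840 to 1576, and leaving out 1 replicate to 713 to 754. List medians were judged against 1 SD over the 4 library pairs, a narrow limit. DESeq2 size factors and the Wald test both lowered the medians to 0.50 (B cell), 0.44 (NF-kB), 0.53 (pre-B cell receptor), 0.50 (replication), 0.69 (mitosis), −0.0689 and −0.0693 (immediate early), −0.0565 and −0.0569 (ribosomal protein), 0.0092 and 0.0093 (biogenesis) and −0.26 (feeder). From the compared libraries alone they were 0.46 (NF-kB), −0.0339 (ribosomal protein), 0.0334 (biogenesis) and 0.38 (granule, which changed sign). Without 1 replicate they ran from 0.98 to 1.17 (macrophage), 0.56 to 0.60 (B cell), 1.1003 to 1.18 (phagocyte receptors), 0.88 to 1.17 (cytokines), 0.49 to 0.50 (NF-kB), 0.61 to 0.75 (lipid efflux), 1.00 to 1.05 (MHC class II), 0.54 to 0.63 (pre-B cell receptor), 0.55 to 0.59 (replication), 0.68 to 0.77 (mitosis), −0.0244 to 0.0193 (immediate early), −0.0099 to 0.0169 (ribosomal protein), 0.0433 to 0.0799 (biogenesis), −0.15 to 0.11 (granule) and −0.22 to −0.18 (feeder). Named gene Gimap1, which matched at −0.02, ran from −0.12 to 0.10, and named gene Tespa1 at 0.02 from −0.22 to 0.39, with −0.0275 and −0.0254 under the DESeq2 settings and −0.00321 from the compared libraries. The causes of these shifts were not tested. Of 1205 alternatives for 151 named genes, 1159 kept direction and call, 38 lost the call, 1 gained it and 7 reversed.

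Replicate numbers did not pair the samples (correlation of their deviations in the compared conditions −0.0073), and with the replicate block 1768 genes (1292 higher, 476 lower) differed. Genes under about 1 CPM, such as Elane and Fcnb, rest on few counts at this depth.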
